A study of Homo sapiens with 72 samples.

Results

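The transcripts described here are 10 long non-coding RNAs that host small nucleolar RNAs (snoRNAs) in their introns: GAS5, SNHG1, SNHG5, SNHG6, SNHG7, SNHG8, SNHG12, SNHG15, SNHG16 and ZFAS1. They were chosen by gene symbol as 10 of the 44659 gene names in the count table. They were measured by QuantSeq, a method that reads only the end of a transcript next to its poly(A) tail. The RNA came from the cytoplasm of A375, an established line of human melanoma cells. The study followed how fast transcripts were lost after a transcription block with and without translation. It did so after a change of siRNA or of medium.

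In the siRNA experiment, cells received a pool of siRNAs against CTU2 (siCTU2) or the control siRNA siGL2, and drugs were added 42 h later. In the medium experiment, cells spent 18 h in glutamine-free medium (mQ) or in medium with glutamine (pQ) before the drugs. All cells received triptolide (25 µM), a drug that stops transcription. In the T arm it was given alone. In the TCHX arm the translation inhibitor cycloheximide (100 µg/ml) was added. Cells were harvested at once (0 h) or after 3 or 5 h. This gave 24 groups of 3 replicates, or 72 libraries. The labels do not say that replicates came from separate cultures, so p-values measure only the spread between these libraries, which may be technical. All groups come from the same cell line.

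A snoRNA host transcript is spliced in the nucleus, and the snoRNAs are cut from its introns. Box C/D snoRNAs guide ribose methylation and box H/ACA snoRNAs guide pseudouridylation of ribosomal RNA. The joined exons leave the nucleus with a cap and a poly(A) tail. Their reading frames are short. A ribosome that reads one can meet a stop codon upstream of the last exon junction, which is a known trigger of nonsense-mediated decay. That pathway needs translation, and cycloheximide is the classical way to block it. Many host genes start transcription in a run of pyrimidines (a 5′ terminal oligopyrimidine, or TOP, start), as ribosomal protein genes do.

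By the symbols in the RefSeq annotation, the hosts of H/ACA snoRNAs alone were SNHG7 (SNORA17A and SNORA17B), SNHG8 (SNORA24) and SNHG15 (SNORA9). SNHG12 carried snoRNAs of both classes, 4 in all. SNHG5, SNHG6, SNHG16 and ZFAS1 carried box C/D snoRNAs, between 1 in SNHG6 and 3 in SNHG16 and in ZFAS1. SNHG1 held 9 annotated snoRNAs, mostly of box C/D. GAS5, the richest host, held 11 snoRNAs, of which 10 had box C/D symbols and 1, SNORA103, an H/ACA symbol. In the canonical transcripts of the GENCODE annotation of GRCh38, the exon count ran from 3 (SNHG6, SNHG8 and SNHG15) to 12 (GAS5). The longest reading frame ran from 45 codons in SNHG6 to 181 in SNHG7, where it began at base 1740 of 2357. Positions of stop codons were not compared with exon junctions.

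The start sites are shown because the TOP start is the sequence feature that host genes are known for. Each line gives 15 bases before the annotated start and 15 bases from it, read 5′ to 3′ on the gene's strand in the RefSeq promoter table (build GRCh38.p14). Capitals mark the run of pyrimidines that begins with C within 5 bases of the start and has at least 3 bases. SNHG6 and SNHG15 are named only.
GAS5 (chr1:173869031-173869060, minus strand): tgccatcatgaattcagatgtgtttatttt
SNHG1 (chr11:62855871-62855900, minus strand): ccggggagattcgttCTCatttttctactg
SNHG5 (chr6:85678719-85678748, minus strand): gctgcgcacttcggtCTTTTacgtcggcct
SNHG7 (chr9:136728170-136728199, minus strand): gcttcccttctcgtCCTCTgcgtgcgccgg
SNHG8 (chr4:118278747-118278776, plus strand): aaggcctcggCCTTTCacattcgggaagcg
SNHG12 (chr1:28581859-28581888, minus strand): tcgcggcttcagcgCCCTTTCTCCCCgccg
SNHG16 (chr17:76557749-76557778, plus strand): cgcaggggcggtctcgcgttCTTTTCgagg
ZFAS1 (chr20:49278627-49278656, plus strand): aggaagccattcgttCTTTCgcgtctgcgg
For GAS5 the table used a start upstream of the one of the GENCODE canonical transcript, which reads, in the genome of build GRCh38:
GAS5, canonical start (chr1:173867975-173868004, minus strand): caggcaccatactgtCTTTTCgaggtagga

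A run that begins with C and has at least 5 pyrimidines (C or T, on the gene's strand only) lay within 5 bases of the start in 6 of the 8 members in the table, against 21.1% of all 35116 promoters. Read from the annotated start base itself, such a run was present in 3 of the 8 (SNHG5, SNHG12 and ZFAS1), against 4.07% of all promoters, in 15 of 31 protein-coding snoRNA hosts and in 4 of 17 other non-coding hosts in the table. Within 5 bases it was present in 6 of those 17 non-coding hosts and 19 of the 31 protein-coding hosts. A match of letters is a description and shows no use of the site.

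Libraries held between 5987692 and 15534331 counts, and all 10 members passed the filter on low counts in every fit. SNHG15 was the thinnest, with 12 to 332 counts per library, and SNHG7 had 33 to 2459. The targeted gene CTU2 was lower in siCTU2 than in siGL2 at 0 h by a log2 difference of -3.71 (edgeR, adjusted p = 9.16e-09). Of the melanoma markers, SOX10 and MITF were present (median 243 and 150.2 CPM, that is, counts after every library is scaled to the same total), whereas MLANA and TYR had medians of 0.20 and 0.21 CPM.

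Some libraries stood apart and touch the results below. In 3 libraries of replicate 3 (labelled mQ T 5 h, pQ TCHX 0 h and siCTU2 TCHX 5 h), 19896 to 20364 genes had counts, against 15507 to 17495 elsewhere. Their summed markers of other cell types were 71.5 to 73.8 CPM, against 2.62 to 12.9 CPM elsewhere, and CTU2 was at 10.4 CPM in the library labelled siCTU2 TCHX 5 h, against 0.133 to 2.95 CPM in the other siCTU2 libraries. SNHG8 reached 326, 325 and 298 CPM in these 3 libraries and lay between 48.0 and 207 CPM in all others. In the other 6 groups at 5 h, replicate 3 was low for several members. SNHG5, for example, had 53.4 to 85.9 CPM there, whereas replicates 1 and 2 of those groups had 266 to 481 CPM. In these 6 groups, 9.07 to 14.3% of genes in replicate 3 were at or below -1 on the log2 scale against the mean of replicates 1 and 2, compared with at most 2.5% in the other 18 groups. Their part in the results was not tested beyond the values without these libraries given below.

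The first question was how high the hosts stood at 0 h, and whether the knockdown or the medium changed them before any loss. Over the 24 libraries at 0 h, SNHG6 had 243 to 500.4 CPM (median 404) and SNHG15 had 10.3 to 22.2 CPM (median 15). Levels of different genes are not ranked here, since 3′ counting depends on each transcript's end. In bulk RNA, fewer cells and less RNA per cell cannot be told apart.

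**Figure D1:**
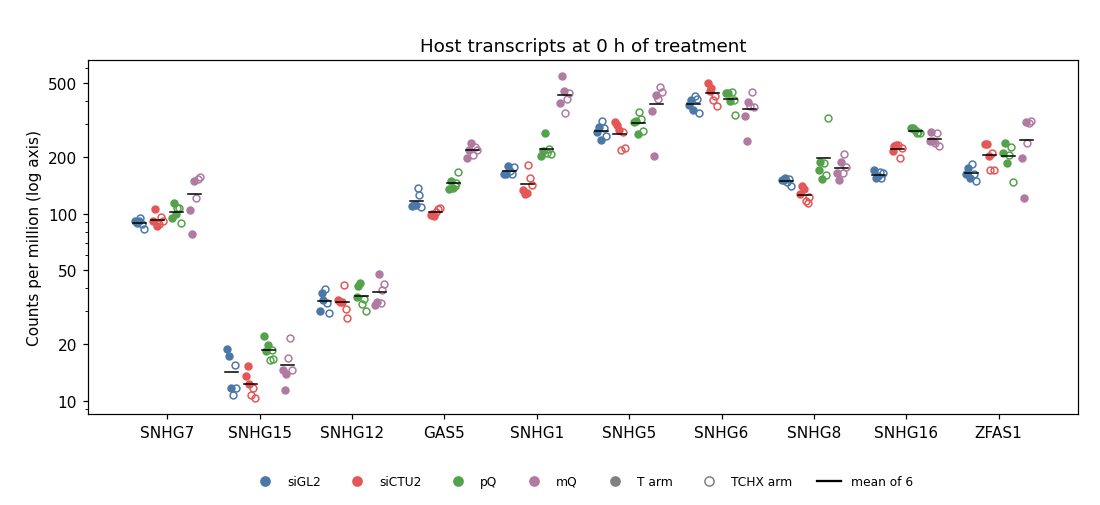
Level of each of the 10 host transcripts at 0 h in CPM (log axis) by condition. Each point is a library, filled for the T arm and open for the TCHX arm, and the bar is the mean of the 6 libraries. SNHG1 and GAS5 stand higher in mQ than in pQ, and SNHG16 stands higher in siCTU2 than in siGL2.

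In the T arm at 0 h, 3 hosts of box C/D snoRNAs rose and 1 fell on CTU2 knockdown. SNHG16 had 215, 230 and 234 CPM in siCTU2 and 171, 154 and 158 CPM in siGL2. The groups did not overlap, and the log2 difference was 0.49 ± 0.07 (SE, n = 3 per group, edgeR, adjusted p = 4.95e-05). ZFAS1 had 235, 236 and 204 CPM in siCTU2 and 162, 175 and 155 CPM in siGL2. It rose by 0.45 ± 0.08 (adjusted p = 0.000247). SNHG6 had 500.4, 454 and 470 CPM in siCTU2 and 378, 404 and 357 CPM in siGL2. It rose by 0.32 ± 0.07 (adjusted p = 0.00131). For neither of them did the groups overlap. SNHG1, the host that fell, had 133, 128 and 128 CPM in siCTU2 and 162, 162 and 180 CPM in siGL2, with no overlap and a log2 difference of -0.38 ± 0.08 (adjusted p = 0.000846).

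These 4 of 10 hosts compare with 36% of all genes called in either direction, so the share of hosts was near the background. The other 6 hosts had log2 differences between -0.23 (SNHG15) and 0.13 (SNHG5). With the replicate number as a block, SNHG8 was called as well (-0.18, adjusted p = 0.0324). The TCHX arm at 0 h, also harvested at once, gave a second set of 6 libraries. There SNHG16 rose again, by 0.44 ± 0.08 (adjusted p = 0.000322). For SNHG1, SNHG6 and ZFAS1 the TCHX arm gave -0.083, 0.047 and 0.17, none past the threshold. SNHG8 and SNHG5 fell in that arm (-0.32 and -0.25, adjusted p = 0.00399 and 0.0397), and 37.2% of all genes were called.

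Removal of glutamine was accompanied by higher SNHG1 and GAS5. SNHG1 had 391, 545 and 454 CPM in mQ and 204, 216 and 271 CPM in pQ, in the T arm at 0 h. The groups lay far apart, with a log2 difference of 1.06 ± 0.14 (edgeR, adjusted p = 0.000486). GAS5, known to accumulate when growth is arrested, had 199, 218 and 239 CPM in mQ and 135, 149 and 137 CPM in pQ. It rose by 0.69 ± 0.11 (adjusted p = 0.00116). SNHG15 had 14.6, 11.4 and 13.8 CPM in mQ and 22.2, 18.4 and 19.8 CPM in pQ, a log2 difference of -0.55 ± 0.17 (adjusted p = 0.0368). Here too the groups did not overlap, but the counts were small and the call was lost when any 1 of 5 of the 6 libraries was left out, all but mQ replicate 3 (adjusted p 0.0615 to 0.141).

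The 3 hosts called of 10 compare with 24.8% of all genes, again near the background. The other 7 hosts differed by -0.34 (SNHG6) to 0.21 (SNHG5). In the TCHX arm at 0 h, SNHG1 and GAS5 rose again (0.93 and 0.54, adjusted p = 0.00118 and 0.0181) and SNHG15 was not called (0.057, adjusted p = 0.893). SNHG5 and SNHG7 rose there as well (0.52 and 0.53, adjusted p = 0.0225 and 0.0388), among 6.47% of all genes. Without the pQ library with extra genes, these 4 hosts and ZFAS1 were called (0.43, adjusted p = 0.00603), among 20.1% of genes. In the T arm, replicate 2 of mQ was low for 3 hosts, with SNHG5 at 204 CPM (354 and 432 in the others), SNHG7 at 77.3 (104 and 149) and ZFAS1 at 121 (198 and 307).

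The second question was how much of each transcript remained after the transcription block. Counts were scaled to genes that rose in CPM over time, here called the stable-gene scale, and each value was divided by the mean of the 3 libraries at 0 h of the same condition and arm. None of the 10 hosts was among those stable genes. On that scale, with translation running (T arm), SNHG7 kept 15.7 to 18.5% at 3 h and 3.83 to 13.4% at 5 h in siGL2. In pQ SNHG7 kept 18.7 to 21.5% and 2.88 to 9.50%. SNHG12 kept 12.6 to 16.5% at 3 h and 10.8 to 22.9% at 5 h in pQ, and the ranges at both times overlapped. SNHG15 kept 17.5 to 30.1% and 10.7 to 28.6% there.

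GAS5 and SNHG1 were lost to a lesser extent. In pQ, GAS5 kept 34.0 to 41.2% at 3 h and 30.1 to 38.6% at 5 h. SNHG1 kept 32.6 to 43.6% and 34.1 to 66.8% in the same libraries. In the T arm the median over 8342 genes was 63.4% at 3 h and 62.5% at 5 h in pQ, and 73.9% and 63.8% in siGL2.

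**Figure D2:**
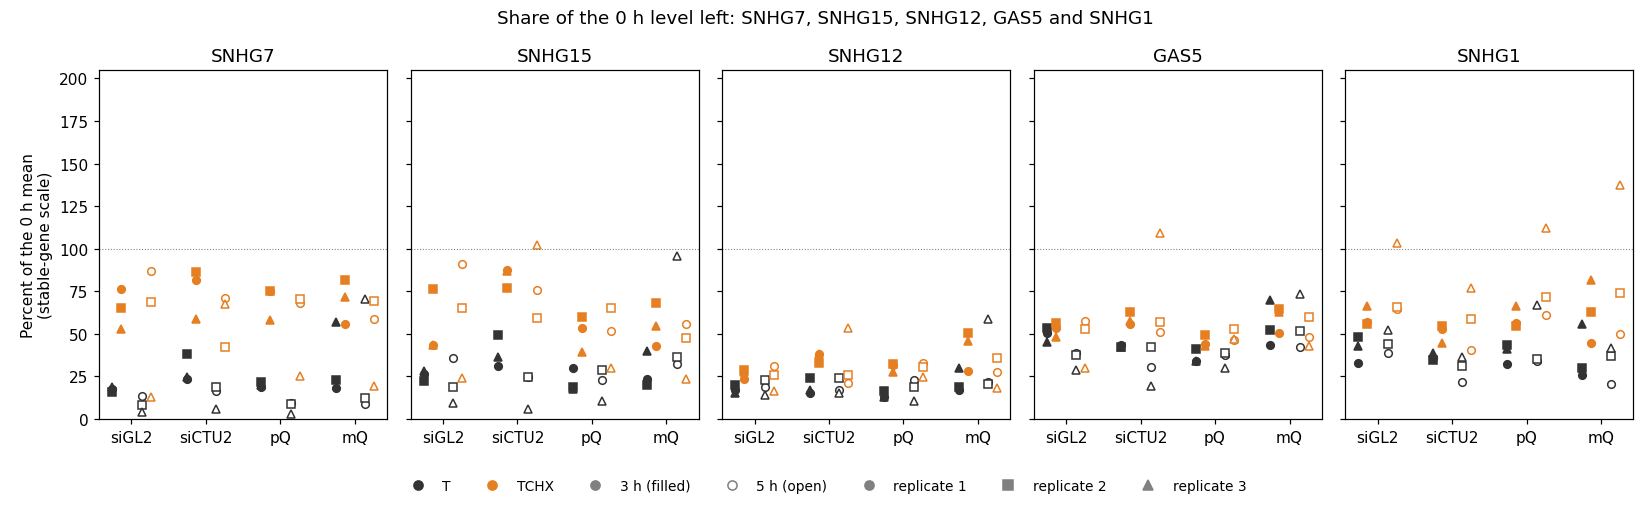
Percent of the 0 h level that remained of SNHG7, SNHG15, SNHG12, GAS5 and SNHG1 at 3 and 5 h on the stable-gene scale, by condition. The dotted line is the 0 h mean, and the libraries at 0 h are not shown. Each point is a library, relative to the mean of the 3 libraries at 0 h of its condition and arm. In siGL2, SNHG7 lies between 15.7 and 18.5% at 3 h in the T arm and between 52.9 and 76.3% in the TCHX arm.

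Tested as the mean of 3 h and 5 h minus 0 h in the T arm, 9 hosts fell in siCTU2, 7 in siGL2, 6 in mQ and 9 in pQ. The background was 62.6, 47.5, 58.6 and 64.3% of all genes, since most transcripts fell on this scale (median log2 change of all genes -0.59 to -0.71). SNHG7 had log2 changes of -3.05 ± 0.39 in siGL2, -3.06 ± 0.29 in pQ, -2.33 ± 0.25 in siCTU2 and -1.66 ± 0.51 in mQ. SNHG12 had -2.49, -2.68, -2.42 and -1.87 in the same order. The changes of SNHG15 were -2.10, -2.21, -1.90 and -1.34. All of these passed the threshold (edgeR, adjusted p between 5.48e-09 and 0.0105). In mQ the calls of SNHG7 and SNHG15 were lost without replicate 1 or 2 (adjusted p 0.0652 to 0.119).

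Relative to the bulk of genes (TMM scale, on which the median change of all genes was -0.02 to 0.02), fewer hosts fell. They were 5 in siCTU2 (background 18.4%), 4 in siGL2 (15.8%), 1 in mQ (12.1%) and 4 in pQ (16.7%). SNHG7, SNHG12, SNHG15 and GAS5 fell on this scale in siCTU2, siGL2 and pQ, SNHG1 only passed in siCTU2, and SNHG12 alone passed in mQ. SNHG12 changed by -1.72, -1.89, -1.21 and -1.98 (siCTU2, siGL2, mQ, pQ), with adjusted p from 1.18e-08 to 0.00578. Without replicate 1 or 2, SNHG12 was not called in mQ (adjusted p = 0.115 and 0.179), nor SNHG1 in siCTU2 (0.0699 and 0.136). SNHG15 in siGL2 was lost without replicate 2 (adjusted p = 0.0726). Without replicate 3, SNHG7, SNHG12, SNHG15 and SNHG1 fell in mQ also on the TMM scale, with 8 hosts called in all, 4 higher (SNHG5, SNHG6, SNHG16 and ZFAS1, background 17.4%) and 4 lower (23.5%).

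The other 5 hosts changed less. SNHG16 fell on the stable-gene scale in all 4 conditions, with log2 changes of -0.47 to -0.58 (adjusted p 0.00111 to 0.0351), whereas on the TMM scale its change was 0.12 to 0.21 and was not called. SNHG8 fell on the stable-gene scale in siCTU2, siGL2 and pQ (-0.95, -0.87 and -0.89) with adjusted p of 0.0081 to 0.0254. SNHG6 and ZFAS1 fell in siCTU2 and pQ (-0.65 and -0.74 for SNHG6, -0.83 and -1.04 for ZFAS1). Without replicate 1 or 2 the calls of SNHG16 were lost in siGL2 (adjusted p = 0.142 and 0.156) and mQ (0.0569 and 0.174). Those of SNHG8 in siCTU2 and siGL2, and of SNHG6 and ZFAS1, were lost likewise (adjusted p 0.0509 to 0.171). SNHG8 in pQ was lost without replicate 2 (adjusted p = 0.111). SNHG5, a host of box C/D snoRNAs, did not pass in any condition (changes of -0.78 to -0.013). Without replicate 3, SNHG5 and ZFAS1 rose in mQ (0.43 and 0.40, adjusted p = 0.0153 and 0.0225), among 2.48% of genes called higher, where their replicate 2 at 0 h was low as given above. On the TMM scale none of these 5 hosts was called in any condition with all libraries.

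The spread of these hosts was largely that between replicate 3 at 5 h and the rest. In siGL2 T at 5 h, SNHG5 kept 84.0 and 87.4% in replicates 1 and 2 and 14.2% in replicate 3. ZFAS1 kept 75, 63.4 and 15.1% in the same libraries. The TCHX arm showed the same split, with SNHG5 at 81.2, 69.8 and 10.2%.

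**Figure D3:**
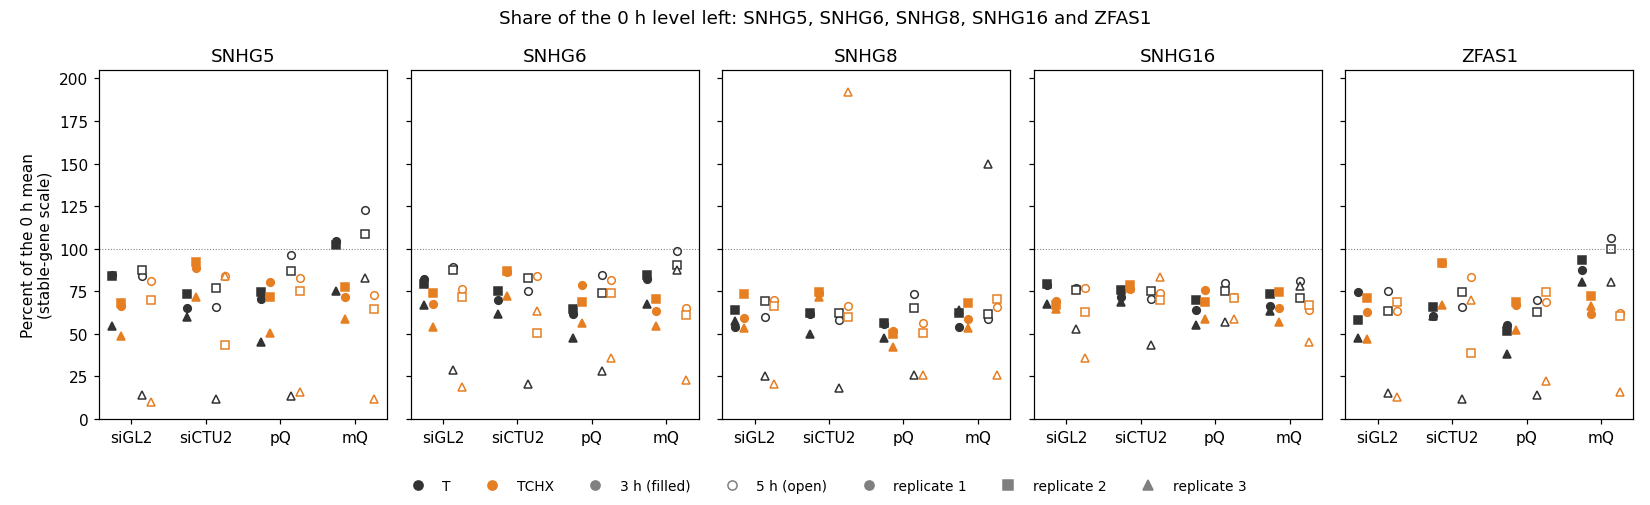
Percent of the 0 h level that remained of SNHG5, SNHG6, SNHG8, SNHG16 and ZFAS1 at 3 and 5 h on the stable-gene scale, by condition, with a point per library as in the plot of SNHG7. At 5 h replicate 3 separates from the others as a low point in 6 of the 8 groups, as for SNHG5 in siGL2 T (14.2% against 84.0 and 87.4%).

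The third question was whether these losses needed translation. The cycloheximide effect was the log2 difference TCHX minus T, averaged over 3 h and 5 h, on the stable-gene scale. At 0 h no member and no other gene was called by edgeR for a difference between the arms in any condition, and 96 to 311 genes had an unadjusted p below 0.05.

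SNHG7 showed the widest gap. In siGL2, the T arm had 20.9, 18.1 and 23.1 CPM at 3 h and 15.9, 9.26 and 5.52 CPM at 5 h. The TCHX arm had 91.9, 74.5 and 67.3 CPM at 3 h and 100.1, 80.3 and 20.5 CPM at 5 h. Every TCHX library at 3 h lay above every T library, and at 5 h replicate 3 of TCHX, at 20.5 CPM, was still above the 3 T libraries. The effect was 2.33 ± 0.35 (edgeR, adjusted p = 0.000141), or 5.02-fold, and positive in 3 of 3 replicates. It was 2.19 without replicate 2 (adjusted p = 0.0523) and 2.47 without replicate 3 (adjusted p = 2.81e-12).

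In pQ, SNHG7 stood at 28.6, 30.7 and 33.7 CPM (T, 3 h) and at 12.6, 12.6 and 4.58 CPM (T, 5 h). With cycloheximide it stood at 108, 106 and 92.9 CPM and at 92.9, 94.5 and 36.7 CPM. The arms did not overlap at either time, and the effect was 2.27 ± 0.26 (adjusted p = 6.04e-06). In siCTU2 the values were 30.8, 46.2 and 32.6 CPM, then 21.9, 23.4 and 11.1 CPM in the T arm. They were 92.9, 94.1 and 71.5 CPM, then 85.7, 54.1 and 81.7 CPM in the TCHX arm. The effect was 1.65 ± 0.22 (adjusted p = 2.48e-05).

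In mQ the labels and the values of SNHG7 parted in replicate 3. The T arm had 31.0, 38.2 and 99.1 CPM at 3 h and 13.9, 20.3 and 101 CPM at 5 h, so that both T libraries labelled replicate 3 stood near the TCHX level of 125 to 167 CPM at 3 h, or above that of the TCHX library of replicate 3 at 5 h (126, 149 and 46.3 CPM). The T library at 5 h is one of those with extra genes, and the one at 3 h is not. The effect was 1.30 ± 0.44 (adjusted p = 0.0972) over all libraries, 2.05 without the library with extra genes (adjusted p = 0.000123) and 2.60 without replicate 3 (adjusted p = 5.37e-13).

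SNHG15, with a single H/ACA snoRNA, moved in the same direction at much lower counts. In pQ, the T arm had 8.97, 5.25 and 5.79 CPM at 3 h and 5.91, 7.85 and 3.33 CPM at 5 h. The TCHX arm had 13.1, 14.3 and 10.6 CPM at 3 h and 11.9, 14.9 and 7.46 CPM at 5 h. The arms were apart at 3 h, and at 5 h the TCHX library of replicate 3 was below a T library of another number. The effect rose past the threshold in siCTU2 (1.20, adjusted p = 0.00144) and pQ (0.93, adjusted p = 0.00975). In siGL2 it was 0.99 (adjusted p = 0.0534) and in mQ 0.76 (adjusted p = 0.144). Without replicate 3, SNHG15 passed in siGL2 (1.09, adjusted p = 0.00116) and in mQ (1.42, adjusted p = 4.14e-06). The calls of SNHG15 were lost without replicate 1 in siCTU2 (adjusted p = 0.0573) and without replicate 1 or 2 in pQ (adjusted p = 0.117 and 0.194).

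SNHG12, which hosts both classes, was still lost to a large extent with cycloheximide, but less far than without it in pQ, siGL2 and siCTU2. In pQ it had 7.49, 9.13 and 8.29 CPM in the T arm at 3 h and 14.7, 14.8 and 14.0 CPM in the TCHX arm, so that 27.4 to 32.5% of the 0 h level remained with cycloheximide against 12.6 to 16.5% without. The arms did not overlap at 3 h. The effect was 0.58 ± 0.17 in pQ, 0.56 in siGL2 and 0.79 in siCTU2 (adjusted p = 0.0245, 0.0411 and 0.00943), and 0.35 in mQ (adjusted p = 0.524). In siCTU2 it was 0.79 without replicate 1 and 0.42 without replicate 3 (adjusted p = 0.0872 and 0.128), and in mQ 0.91 without replicate 3 (adjusted p = 0.000203). The calls of SNHG12 in siGL2 and pQ were lost without replicate 1 or 2 (adjusted p 0.181 to 0.356). With scaling to genes stable at both times, of which the medium experiment had only 3, SNHG12 had 0.25 in pQ (adjusted p = 0.335).

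GAS5 and SNHG1, whose snoRNAs are mostly of box C/D, rose with cycloheximide in some conditions. GAS5 had 71.4, 80.2 and 78.8 CPM in pQ T at 3 h and 93.3, 103 and 101 CPM in pQ TCHX. The groups did not overlap, and the effect of 0.42 ± 0.10 (adjusted p = 0.00621) was positive in 3 of 3 replicates. In pQ it was 0.088 with genes stable at both times (adjusted p = 0.701) and was not called without replicate 1 or 2 (adjusted p = 0.15 and 0.111). In siGL2 it was 0.46 (adjusted p = 0.0441), was not called without replicate 1 or 2 (adjusted p = 0.388 and 0.465), and was 0.25 after subtraction of the 0 h difference (adjusted p = 0.945). In siCTU2 it was 0.85 over all libraries and 0.64 without the library with extra genes (adjusted p = 0.00316), where GAS5 was at 151 CPM against 70.1 and 82.9 CPM in the other 5 h TCHX libraries. In mQ it was 0.00 ± 0.15, and 0.27 without replicate 3 (adjusted p = 0.102), so that no setting that left out those libraries called it there.

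With all libraries and the main settings, SNHG1 was the only host called in all 4 conditions, with p-values close to the threshold in mQ and pQ. Its effect was 0.94 in siCTU2, 0.71 in siGL2, 0.91 in mQ and 0.55 in pQ (adjusted p = 0.000106, 0.000854, 0.0463 and 0.0487), and it was positive in 12 of 12 replicates. Without replicate 1 or 2 the calls of SNHG1 were lost in mQ (adjusted p = 0.29 and 0.554) and in pQ (adjusted p = 0.279 and 0.313). At 3 h alone SNHG1 was called in no condition (0.43 to 0.69, adjusted p 0.0693 to 0.658). After subtraction of the 0 h difference it was also called in none (0.66 to 1.08, adjusted p 0.0832 to 0.54). In pQ it had 0.44 with TMM and 0.20 with genes stable at both times (adjusted p = 0.225 and 0.427). In mQ T at 5 h it had 140, 251 and 249.5 CPM, and with cycloheximide 297, 440 and 907 CPM. All TCHX libraries lay above all T libraries there. In siGL2 TCHX at 5 h SNHG1 stood at 321 CPM in replicate 3 against 143 and 148 CPM, whereas SNHG5 and ZFAS1 were low in that library.

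**Figure D4:**
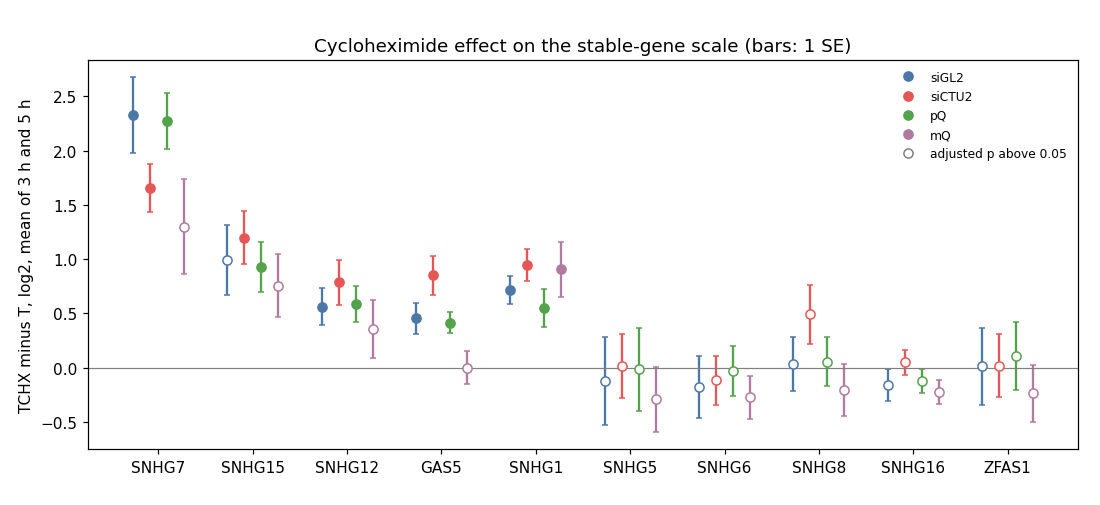
Cycloheximide effect (log2 difference TCHX minus T, mean of 3 h and 5 h, stable-gene scale) of the 10 hosts in siCTU2, siGL2, mQ and pQ. Bars are 1 SE and open points have an adjusted p above 0.05. SNHG7 has the highest point in all 4 conditions (1.65, 2.33, 1.30 and 2.27), and SNHG5, SNHG6, SNHG16 and ZFAS1 lie near 0.

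In total, 5 of 10 hosts rose with cycloheximide in siCTU2 (background 21% of genes called higher), 4 in siGL2 (12.1%), 1 in mQ (5.12%) and 5 in pQ (12.3%). The median effect of the 10 hosts was 0.64, 0.25, -0.10 and 0.26, beside 0.22, 0.05, 0.05 and 0.06 over all genes tested. Without replicate 3, 4, 5, 5 and 5 hosts rose, against 16.1, 16.3, 24.2 and 14.8% of genes. The hosts called in mQ without replicate 3 were SNHG1, SNHG7, SNHG8, SNHG12 and SNHG15.

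SNHG5, SNHG6, SNHG8, SNHG16 and ZFAS1 did not pass in any condition. Their effects lay between -0.12 and 0.49 in siCTU2, -0.18 and 0.03 in siGL2, -0.29 and -0.21 in mQ, and -0.12 and 0.11 in pQ. In pQ at 3 h SNHG16, for example, had 269.8, 276 and 259 CPM in the T arm and 291, 259 and 248 CPM in the TCHX arm, and the arms overlapped. SNHG8 had 142, 133 and 135 CPM in the T arm and 159.8, 151 and 144 CPM in the TCHX arm. The upper value of 0.49, that of SNHG8 in siCTU2, was 0.12 without the library with extra genes, where SNHG8 stood at 298 CPM.

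Annotated features that the choice by symbol did not use differed among the hosts. Of the 5 that rose in pQ, SNHG7 has 6 exons, SNHG12 has 6, SNHG15 has 3, GAS5 has 12 and SNHG1 has 11. Of the 5 that were not called there, SNHG5 has 6 exons, ZFAS1 5, SNHG16 4, and SNHG6 and SNHG8 3 each. With 10 genes these counts are a description only.

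The fourth question was whether the knockdown or the medium changed the translation-dependent loss. No host was called for a difference of the cycloheximide effect between siCTU2 and siGL2 (edgeR over 36 libraries, 0.379% of all genes called), and none had an unadjusted p below 0.05. SNHG7 had -0.68 ± 0.42 (adjusted p = 0.69) and GAS5 0.40 ± 0.24 (adjusted p = 0.667). The other 8 hosts lay between 0.01 and 0.46. Without replicate 3, SNHG7 was called, with -1.01 ± 0.23 (adjusted p = 0.0382), when 0.106% of all genes were called lower. In those libraries SNHG7 kept less in siGL2 T (15.7 to 17.9% at 3 h) than in siCTU2 T (23.4 and 38.1%).

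For mQ minus pQ no host and none of the 14177 genes tested was called by edgeR (0%), while 525 genes had an unadjusted p below 0.05. Among the hosts GAS5 alone had one, with -0.42 ± 0.18 (adjusted p = 1). SNHG7 had -0.97 ± 0.54 (adjusted p = 1), but 0.27 without replicate 3 (adjusted p = 0.594), so its sign changed when replicate 3 was left out. Without replicate 3, 286 genes were called higher and 4 lower, none of them a host. Without the filter on low counts, SNHG7 passed (-0.97, adjusted p = 0.00322).

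The translation-dependent decay (TDD) index gives the same contrast as a share. At each time the normalised T count is subtracted from the TCHX count. The result is divided by the count at 0 h of that replicate, taken as the mean of its T and TCHX libraries. Over 3 h and 5 h, SNHG7 had an index of 0.47 ± 0.20 (SD, n = 3) in siGL2, 0.44 ± 0.13 in siCTU2, 0.46 ± 0.12 in pQ and 0.46 ± 0.42 in mQ. The mean in mQ joins unlike replicates. There SNHG7 had 0.59 to 0.77 in replicates 1 and 2, but 0.27 (3 h) and -0.31 (5 h) in replicate 3. In pQ it had 0.44 to 0.58 in replicates 1 and 2, and 0.42 and 0.25 in replicate 3. SNHG15 ranged from 0.21 (mQ and pQ) to 0.39 (siCTU2), and SNHG1 from 0.21 (pQ) to 0.33 (mQ). SNHG12 had only 0.08 in siGL2 and 0.15 in siCTU2. SNHG6 and SNHG16 lay between -0.12 and 0.02.

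No gene passed the adjusted threshold for a difference of the index, in either experiment. At an unadjusted p of at most 0.05, 0 of 10 hosts passed for siCTU2 minus siGL2 (background 8.15%) and 1 for mQ minus pQ (background 4.78%). That host was ZFAS1, with -0.14 ± 0.06 (adjusted p = 0.999). Values at 3 h and 5 h of a replicate share their 0 h count and are not independent.

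Other lists were read from the same fits for comparison (order siCTU2, siGL2, mQ, pQ), in which 21, 12.1, 5.12 and 12.3% of all genes were called higher. Of 15 other non-coding snoRNA hosts tested, 0, 0, 0 and 1 rose with cycloheximide, the last being EPB41L4A-AS1 (0.42, adjusted p = 0.0323). At an unadjusted p below 0.05 these counts were 4, 3, 0 and 1. Over all genes tested, 4204 of 13638, 2814 of 13161, 2567 of 13442 and 2863 of 13347 were below that unadjusted p, in either direction. Of 32 protein-coding hosts, 3, 2, 1 and 2 rose, WDR43 in all 4 conditions (0.73, 0.79, 0.91 and 0.60). Among lncRNAs without a snoRNA, 2 of 10, 2 of 10, 0 of 11 and 2 of 11 rose, GABPB1-AS1 and PVT1 each time. The difference between these lists and the 10 hosts was not tested.

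Genes of the decay pathway itself moved as well. Of 18 nonsense-mediated decay factors, many of whose mRNAs are known targets of the pathway, 11, 7, 2 and 8 rose with cycloheximide and 0 fell, against the 21, 12.1, 5.12 and 12.3% of all genes called higher in the same order. SMG9, a partner of the kinase SMG1, rose by 1.57 in siCTU2, 1.5 in siGL2 and 1.65 in pQ, and had 1.33 in mQ (adjusted p = 0.0743). Of 15 mRNAs known as decay targets, 7 rose in each condition. MAP3K14 rose by 2.94, 4.32, 3.34 and 3.68, and GADD45A by 1.63, 1.71, 2.22 and 2.30. The list medians were 0.49, 0.28, 0.23 and 0.22 for the factors and 0.45, 0.27, 0.18 and 0.22 for the targets, beside the medians of all genes given above.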

How the data were processed

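The deposited files hold raw counts for each gene. The authors trimmed the forward reads (fastp 0.20.1), mapped them to GRCh38.p13 (HISAT2 2.2.1) and counted them with htseq-count (HTSeq 0.13.5). The strand setting is not given in the sources used here, so counts of SNHG6, SNHG7, SNHG8, SNHG12 and ZFAS1, whose exons overlap genes on the opposite strand, are uncertain, as is SNHG5, which overlaps a gene on the same strand. Molecular identifiers are not mentioned, so counts may hold PCR copies. Error models cover counting error and the spread between these libraries only.

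Groups came from the sample titles. The 10 members and all lists were chosen with earlier results of these data known. All 10 members were named in every comparison, and of other lists at most the 3 genes with the smallest p among those past the threshold. Of the genes of most similar pattern, the 5 with the highest correlation were named.

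Counts were tested in R 4.3.3 with edgeR 4.0.16 (filterByExpr, quasi-likelihood F-test) over all genes, with Benjamini-Hochberg adjustment and a threshold of 0.05. TMM scaling was used at 0 h (6 libraries per fit, without a block). Over time, 18 libraries per condition were scaled to stable genes after the study's methods. A stable gene had a CPM above 0.2 at 0 h, a CPM at 3 or 5 h at least 1.1 times and less than 10 times that at 0 h, in all replicates and arms of an experiment. There were 198 in the siRNA experiment and 82 in the medium experiment, and all changes are relative to them. The alternative of genes stable at both times rested on only 8 genes in the siRNA experiment and 3 in the medium experiment. The TDD index was fitted by a linear model (terms for replicate, time and condition) where the normalised count at 0 h averaged at least 10 in both conditions. Tests were checked on simulated counts drawn independently for each library. That check included no libraries that stand apart and no same-numbered libraries that deviate together, so it does not cover those features of the data.

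Same-numbered libraries deviated together at 0 h in the siRNA experiment (r = 0.102, 0.198 and 0.304) but not in the medium experiment (0.132, -0.176 and -0.165). In the 18-library fits every same-numbered pair was positive in siGL2 (lowest r = 0.021). The lowest r was -0.370 in siCTU2, -0.521 in mQ and -0.002 in pQ. The main tests used no block in either experiment, so they ignore any pairing, and fits with the replicate number as a block are alternatives. Alternatives were other scalings, filters and tools (DESeq2 1.42.0), the block, single times, the other arm, and leaving out replicates or libraries.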

Additional observations from a re-analysis of the deposited data

How the results depend on the processing

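Of 679 values of members named with their own result, 552 kept their direction and side of the threshold under an alternative, 99 fell below it, 18 passed it and 10 changed sign. Of 176 counts of members, 131 stayed within 1.5 times. For hosts given in ranges, 128 of 921 values had the other sign, 6 of them past the threshold. The cause of these changes was not tested. The share of all genes called moved with the setting as well. For the cycloheximide effect, 21, 12.1, 5.12 and 12.3% of genes (siCTU2, siGL2, mQ, pQ) were called higher with all libraries. Without replicate 3 these shares were 16.1, 16.3, 24.2 and 14.8%. Counts of hosts called below are given without that share, so they show no change of the hosts apart from other genes.

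At 0 h, SNHG15 (mQ against pQ) was 0.057 in the TCHX arm and 0.047 there without the library with extra genes, a choice made after seeing the data, when 5 hosts were called. Hosts called for the cycloheximide effect numbered 1, 1, 0 and 1 (siCTU2, siGL2, mQ, pQ) at 3 h alone and 2, 1, 0 and 1 after subtraction of the 0 h difference. At 5 h alone they were 2 in siGL2, 0 in mQ and 2 in pQ. With genes stable at both times they were 2 in siGL2, 3 in mQ and 2 in pQ. In mQ they were 2 with TMM, 3 without the filter and 4 without the libraries with extra genes. GAS5 in mQ was -0.071 with TMM, -0.13 at 5 h and -0.027 after subtraction, and SNHG12 in mQ was -0.26 at 5 h. The T arm in mQ on the TMM scale had 5 hosts called without the filter and 4 without the libraries with extra genes. For the difference mQ minus pQ, 1 host was called without the filter. Hosts with an unadjusted p of at most 0.05 for the TDD index were 1 (siRNA) and 4 (medium) with each arm over its own 0 h library, and for the medium 4 with TMM and 0 with genes stable at both times.

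With the replicate number as a block, hosts called in mQ were 2 for the cycloheximide effect and 2 for the T arm on the TMM scale, and SNHG15 at 0 h (mQ against pQ) was lost. In these fits the samples share only a number.

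Leaving out 1 replicate number at a time, hosts called for the cycloheximide effect ranged over 3 to 5 in siCTU2, 1 to 5 in siGL2, 0 to 5 in mQ and 1 to 5 in pQ. For the T arm they ranged over 3 to 7 (siGL2) and 0 to 8 (mQ) with TMM and 1 to 9 (mQ) on the stable-gene scale. The difference siCTU2 minus siGL2 had 0 to 1, and the TDD index of the medium 0 to 3. In mQ, GAS5 ranged from -0.17 to 0.27 and SNHG12 from -0.040 to 0.91. SNHG7 in mQ minus pQ ranged from -1.46 to 0.27. Depth limits SNHG15 above all, with as few as 12 counts.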

Other observations

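The pattern of the hosts over the 24 group means of log2(CPM + 1), centred within each experiment, can be set beside that of other genes. The points share libraries, arms and time points, so the correlations are descriptions with no test. GAS5, SNHG12, SNHG15 and SNHG7 followed the mean of the other 9 hosts closely (Pearson r = 0.863, 0.834, 0.832 and 0.829), and SNHG8 did so with r = 0.762. ZFAS1, SNHG1 and SNHG5 stood between (0.679, 0.604 and 0.590), and SNHG6 and SNHG16 were least like the others (0.334 and 0.0384). Among 8332 other genes with a mean of at least 100 counts, those most like the mean profile of the hosts were BRWD1 (r = 0.962), ZNF264 (0.962), LOC105371204 (0.957), POGZ (0.956) and CES2 (0.952).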
